A study of Rattus norvegicus with 5 samples.

Results

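Glycogen is the branched glucose polymer that cells keep as a store, and the 9 genes described here encode the enzymes that build it and break it down, with 1 regulator. They are Pgm1, Ugp2, Gyg1, Gys1, Gbe1, Ppp1r3c, Pygl, Pygb and Pygm, picked out by gene symbol. All 9 symbols were found among the 17048 rows of the deposited tables, with 1 row each. RNA was sequenced from cultured rat vascular smooth muscle cells, which contract the vessel wall, in 5 libraries with 1 library for each condition. One library came from control cells and another from cells kept in hypoxia for 24 h. The other 3 came from cells given a compound ahead of the same hypoxia, DPN or In-Cl at 0.1 µM each or E2 at 10 nM. All 3 compounds are ligands of estrogen receptors: E2 is estradiol, DPN (diarylpropionitrile) prefers the beta receptor, and In-Cl is the indazole compound of the series title. The labels give neither the vessel of origin, the oxygen level, the length of pretreatment nor whether the control and hypoxia cells received vehicle, and compounds without hypoxia were not analysed here.

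Glycogen is built from glucose 6-phosphate. Phosphoglucomutase turns it into glucose 1-phosphate, UGP2 activates that to UDP-glucose, glycogenin starts a chain on itself, glycogen synthase lengthens it and the branching enzyme adds branch points. Glycogen phosphorylase removes glucose units again as glucose 1-phosphate, which phosphoglucomutase returns to glycolysis. The synthase is switched on, and the phosphorylase off, by protein phosphatase 1 that targeting subunits hold on the glycogen particle. Low oxygen makes cells rely on glycolysis, and cultured cells are known to store glycogen under hypoxia, with the synthase, the branching enzyme and targeting subunits described as targets of hypoxia-inducible factor.

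The DNA before Pygl, Gbe1, Ppp1r3c, Gys1 and Gyg1 is shown first. The reason is that 5 of the 9 genes, Pgm1 among them, stood far above the control together in all hypoxic libraries. Others of the same pathway did not. Of the 5, Pygl had only 45 reads in the control. Hypoxia-inducible factor binds a short core whose most familiar form is ACGTG. RefSeq promoter windows of 300 bases, from 250 before to 50 after the annotated start, were matched by symbol for 9 of 9 genes on build GRCr8, which is not the rn6 build named by the submitters. The windows below read 5′ to 3′ along the gene, and capitals mark ACGTG or, for a match on the opposite strand, CACGT. Pygl, Gbe1 and Ppp1r3c were among the genes that were higher, Gys1 was higher with no such letters in its window, and Gyg1 has them and was lower in hypoxia.
Pygl: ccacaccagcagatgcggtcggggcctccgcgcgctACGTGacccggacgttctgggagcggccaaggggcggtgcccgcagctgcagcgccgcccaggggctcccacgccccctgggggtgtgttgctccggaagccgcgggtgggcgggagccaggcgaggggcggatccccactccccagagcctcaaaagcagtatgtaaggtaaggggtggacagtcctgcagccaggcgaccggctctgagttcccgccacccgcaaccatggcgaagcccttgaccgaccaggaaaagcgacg
Gbe1: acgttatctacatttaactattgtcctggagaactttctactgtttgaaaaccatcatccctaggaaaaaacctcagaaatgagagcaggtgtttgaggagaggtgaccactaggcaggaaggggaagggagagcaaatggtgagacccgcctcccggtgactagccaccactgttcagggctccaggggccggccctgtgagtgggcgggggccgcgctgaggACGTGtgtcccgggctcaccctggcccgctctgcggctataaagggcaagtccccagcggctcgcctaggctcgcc
Ppp1r3c: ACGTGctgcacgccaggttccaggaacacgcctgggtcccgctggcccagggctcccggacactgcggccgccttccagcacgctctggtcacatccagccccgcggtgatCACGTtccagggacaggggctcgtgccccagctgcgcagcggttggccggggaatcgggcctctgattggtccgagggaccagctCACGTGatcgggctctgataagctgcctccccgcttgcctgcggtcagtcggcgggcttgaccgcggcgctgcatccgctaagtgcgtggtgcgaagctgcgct
Gys1: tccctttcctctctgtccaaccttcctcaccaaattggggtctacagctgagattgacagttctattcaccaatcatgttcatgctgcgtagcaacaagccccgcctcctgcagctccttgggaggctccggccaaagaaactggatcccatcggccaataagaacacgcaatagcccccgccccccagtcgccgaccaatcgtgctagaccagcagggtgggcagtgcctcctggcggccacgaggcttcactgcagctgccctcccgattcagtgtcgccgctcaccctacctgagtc
Gyg1: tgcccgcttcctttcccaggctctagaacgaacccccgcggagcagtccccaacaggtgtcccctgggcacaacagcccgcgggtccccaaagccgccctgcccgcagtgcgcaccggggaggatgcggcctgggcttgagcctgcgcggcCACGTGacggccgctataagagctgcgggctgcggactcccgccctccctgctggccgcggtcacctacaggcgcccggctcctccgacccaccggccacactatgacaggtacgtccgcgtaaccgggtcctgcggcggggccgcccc

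The Pygl window lies at chr6:94476170-94476469 on the minus strand of GRCr8, and its single match starts 214 bases before the annotated start. The Gbe1 window is chr11:22181026-22181325 on the plus strand, with 1 match 26 bases before the start. The Ppp1r3c window is chr1:243878478-243878777 on the minus strand and holds 4 matches, counted on both strands. One pair of these overlaps in a palindromic CACGTG, the E-box, which reads as ACGTG on either strand. The Gys1 window is chr1:105051666-105051965 on the plus strand and has 0 matches. The Gyg1 window is chr2:104582728-104583027 on the minus strand, and both of its matches belong to 1 CACGTG. Of the 6 genes that were at least 2-fold higher in hypoxia, 5 had ACGTG on either strand in this window, as had 2 of the other 3. Pygm, with 1 read in the control, is among the 6 and among the 5. These counts include the windows of Pgm1, Ugp2, Pygb and Pygm, which are not shown. The same letters occur in 19.3% of all 33469 windows of this length and in 28.1% of the 5474 windows whose symbol is among the abundant rows defined below. CACGTG occurs in 6.42% of all windows and in 2 of the 9. The windows of the 9 genes hold 56.3% to 72.3% G and C, above the median of 51.7% over all windows, and the part of base composition in the motif count was not tested. A match is a run of letters, not a measured binding site, and its absence says nothing about sites elsewhere.

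The deposited values are log2 of a read count adjusted to a common library size, plus 1. Low values come in nearly equal steps, from which approximate reads were recovered. The libraries hold about 20173080 (E2) to 24366258 (control) reads. Differences below are between deposited log2 values. With 1 library for each condition no difference has a replicate check and no p-value is given, so each statement compares libraries. The 95% counting interval beside a difference, from the exact Clopper-Pearson method applied to the reads of both libraries, covers counting error only, and sequenced reads are not independent molecules. Counts of genes use the 6699 abundant rows, the upper 50% of 13397 detected rows by mean linear value (at least 310.5). Of the 9 genes, 8 are among them and Pygm is not. Smooth muscle markers were present, 10 of 10, with Acta2 (smooth muscle actin) at 109314 to 147704 reads in each library and a summed linear level of 357459 in the control and 326782 to 411459 in the hypoxic libraries. Within that list Smtn, smoothelin, was lower in all hypoxic libraries (hypoxia minus control -0.99, interval -1.06 to -0.91). Cnn1 and Lmod1 were also highest in the control, while Myh11, Myocd and Cald1 were lowest there. For Acta2, Tagln, Tpm2 and Mylk the control lay within the hypoxic range. Myh11 and Myocd were not among the abundant rows. Of 6 endothelial markers, Cdh5 and Kdr were at 0 reads in every library, while Tek had 288 reads in the control and 341 to 442 in the hypoxic libraries and Flt1 186 against 59 to 87. Their summed level was 417 in the control and 451 to 522 in the hypoxic libraries. Of 6 hepatocyte markers, Ttr and Gys2 were at 0 reads in every library, and the summed linear level of the list was 8.99 in the control and 9.001 (E2) to 23.6 (hypoxia) in the hypoxic libraries. Of 6 leukocyte markers Cd3e and Itgam were at 0 in every library, with a sum of 35.5 in the control and 47.4 to 63.9 in hypoxia with or without compound. The skeletal muscle list held much Acta1, Myh1 and Myh2, but Tnni2 at 0 reads and Ckm at 0 to 5, and its sum of 6122 in the control lay within the 5019 to 7104 of the hypoxic libraries. Of 4 neural markers Rbfox3 was at 0 in every library and Gfap at 2 to 7 reads, but Aqp4 had 106 to 169 reads, and the sum was 107 in the control and 124 to 169 in the hypoxic libraries. Of 5 fibroblast markers Lum was lower in all hypoxic libraries (hypoxia minus control -1.04, interval -1.18 to -0.90), and the sum, mostly Col1a1, was 228973 in the control and 263873 to 285620 in the hypoxic libraries. The part of these marker differences in the glycogen results was not tested. Col1a1 and Lum were abundant, so a share of other matrix-producing cells cannot be told apart here. The rest of the fibroblast list was low, with Dcn at 0 to 14 reads, Thy1 at 58 to 98 and Pdgfra at 98 to 122. None of these was among the abundant rows. In bulk RNA, fewer cells of a type and less RNA per cell cannot be told apart either.

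Hypoxia against control asks what 24 h of low oxygen does to these genes. In the hypoxia library the liver-type phosphorylase Pygl, the synthase Gys1, the branching enzyme Gbe1, the phosphatase-targeting subunit Ppp1r3c and the phosphoglucomutase Pgm1 stood at least 3.31-fold above the control. The muscle-type phosphorylase Pygm was also higher, on few reads. Glycogenin Gyg1 and the brain-type phosphorylase Pygb were moderately lower, and Ugp2 was close to the control. Among the 8 abundant genes 5 passed 2-fold upward, against 1.88% of all abundant rows, and 0 passed 2-fold downward, against 0.224%. Pygl, Gbe1 and Ppp1r3c, with control linear values of 37.8, 300.7 and 242.5, met the abundance filter of 310.5 only through the hypoxic libraries in which they are high, so these counts are a description and support nothing. Without the filter 6 of the 9 were at least 2-fold higher and 0 at least 2-fold lower, beside 8.85% and 3.25% of all 13397 detected rows. The median log2 difference of the 8 abundant genes was 1.98, beside -0.045 over all abundant rows. It includes Pygl, Gbe1 and Ppp1r3c and is likewise a description. Over all 9 genes the median was 2.24, beside 0.002 over all detected rows. By the counting interval alone 6 of the 8 abundant genes lay above 0 (28.7% of abundant rows) and 2 below 0 (39% of abundant rows). The 6 include Pygl, Gbe1 and Ppp1r3c. An interval that leaves out 0 is thus common among rows at this depth.

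**Figure D1:**
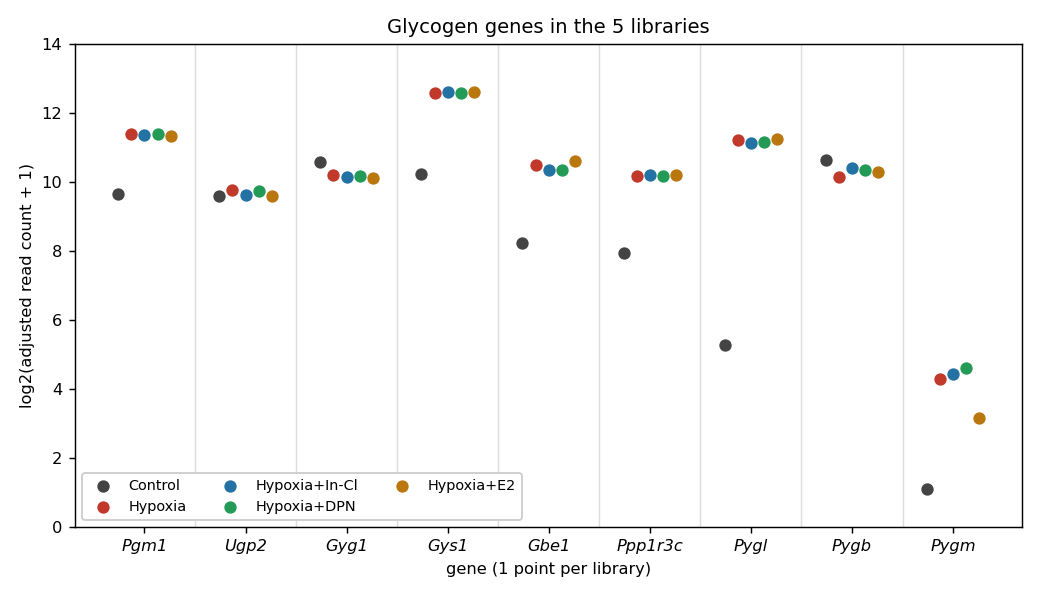
Deposited log2 values (vertical axis, log2 of adjusted read count plus 1) of the 9 genes, with 1 point for each of the 5 libraries. The control point lies far below the 4 hypoxic points for Pgm1, Gys1, Gbe1, Ppp1r3c and Pygl, above them for Gyg1 and Pygb, and the Pygm points rest on 1 to 22 reads.

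Among the genes that supply glucose units, Pgm1 interconverts glucose 6-phosphate and glucose 1-phosphate and so serves both directions. Its log2 value was 9.65 in the control, 11.38 in hypoxia, 11.40 with DPN, 11.37 with In-Cl and 11.33 with E2. The 4 hypoxic libraries lay close together and all far above the control. Hypoxia exceeded the control by 1.73 (interval 1.62 to 1.84), on 2587 reads against 949.

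Ugp2 makes UDP-glucose, the donor for glycogen and for other sugar polymers. It stood at 9.58 in the control, 9.75 in hypoxia, 9.73 with DPN, 9.62 with In-Cl and 9.60 with E2. The control was the lowest of the 5, but by little. The difference was 0.17 for hypoxia (interval 0.04 to 0.31) and 0.15 for DPN (0.01 to 0.29). With In-Cl it was 0.03 (-0.11 to 0.17) and with E2 0.02 (-0.12 to 0.17), so these libraries were not distinguishable from the control at this depth. Between these neighbouring steps of the pathway, the ratio of Pgm1 to Ugp2 was 2.94 times the control's in the hypoxia library, and 3.01 to 3.22 times with the compounds.

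Gyg1, glycogenin, primes a new glycogen particle by glucosylating itself. Its values were 10.58 in the control, 10.21 in hypoxia, 10.17 with DPN, 10.14 with In-Cl and 10.12 with E2. The control was the highest and did not overlap the hypoxic libraries. The hypoxia library lay 0.37 below on the log2 scale (-0.37, interval -0.47 to -0.26), on 1150 reads against 1803.

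Gys1 is the muscle-type glycogen synthase, which is the form most tissues outside the liver use. It stood at 10.22 in the control, 12.58 in hypoxia, 12.58 with DPN, 12.61 with In-Cl and 12.62 with E2. All 4 hypoxic libraries were near the same level, well above the control. In hypoxia it was 5.13-fold higher (log2 2.36, interval 2.28 to 2.44), on 5915 reads against 1403. The liver-type synthase Gys2 was at 0 in all 5 libraries.

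Gbe1 transfers short chains to make the branch points that keep glycogen soluble. Its log2 value was 8.24 in the control, 10.49 in hypoxia, 10.35 with DPN, 10.34 with In-Cl and 10.60 with E2. The control was again the lowest by a wide margin, and E2 the highest. Hypoxia exceeded the control 4.76-fold (log2 2.25, interval 2.08 to 2.42). RefSeq places 2 long noncoding RNA loci over Gbe1, 1 over Pygl and 1 over Pygm. Whether strand was used in counting is not given in the sources used here, so reads from such a locus cannot be told apart from the gene's own.

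Ppp1r3c, also called PTG, holds protein phosphatase 1 on glycogen and thereby favours synthesis. It stood at 7.93 in the control, 10.17 in hypoxia, 10.18 with DPN, 10.20 with In-Cl and 10.21 with E2. The hypoxic libraries were almost level and did not overlap the control. The hypoxia difference was 2.24 (interval 2.05 to 2.43), on 1111 reads against 286. Its ratio to Gys1 was nearly the same in all libraries: it moved by -0.12 (log2) from control to hypoxia and by -0.10 to -0.12 from control to the compound libraries.

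The phosphorylases are 3 genes for the same reaction, named for liver, brain and muscle. Pygl had a log2 value of 5.28 in the control, 11.20 in hypoxia, 11.15 with DPN, 11.14 with In-Cl and 11.23 with E2. It was nearly silent in the control library, with 45 reads, and had 2149 to 2289 in every hypoxic library. From control to hypoxia the step was 5.92 (5.52 to 6.41), the second largest of all 6699 abundant rows. Pygl is among these rows only through the hypoxic libraries, so this rank is a description and supports nothing. Pygb went the other way. It stood at 10.63 in the control, 10.15 in hypoxia, 10.34 with DPN, 10.40 with In-Cl and 10.30 with E2, so that the control was highest and hypoxia without compound lowest. Hypoxia lay below the control by -0.49 (interval -0.60 to -0.38).

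The ratio of Pygl to Pygb in hypoxia was 85.1 times that in the control; the factor was 71.9 with DPN, 68.5 with In-Cl and 78.2 with E2. These ratios all rest on the same 45 control reads of Pygl. Pygm, the form of skeletal muscle, had 1 read in the control, 18 in hypoxia, 22 with DPN, 21 with In-Cl and 7 with E2. All hypoxic libraries were above the control, but with a single control read the interval of the step is wide (log2 3.19, interval 1.79 to 9.83). Adding 10 instead of 1 before taking logs brings it to 1.36.

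**Figure D2:**
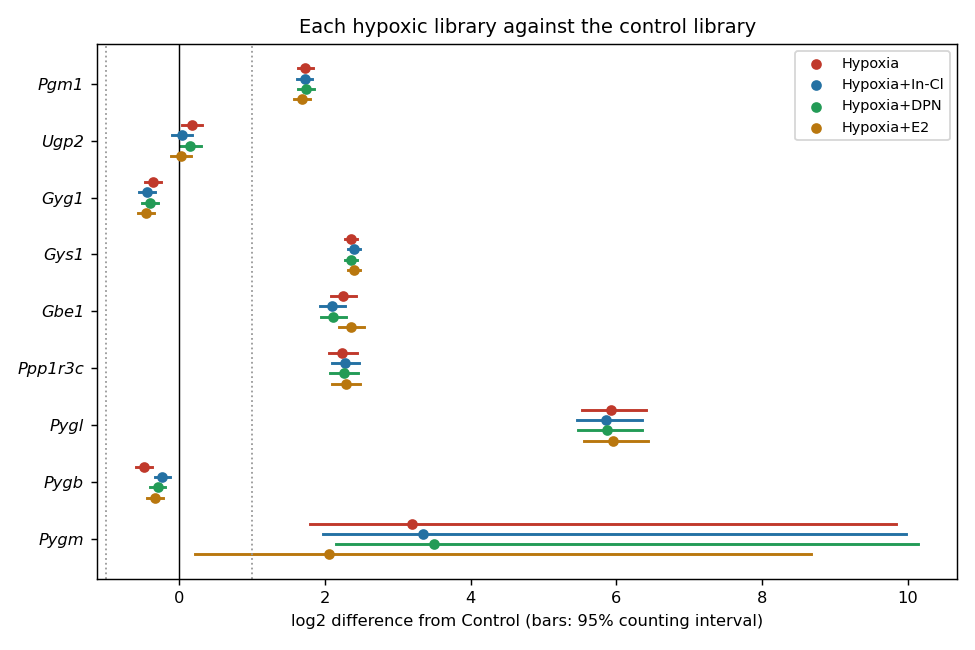
Log2 difference of each of the 4 hypoxic libraries from the control library (horizontal axis) for the 9 genes, with 95% counting intervals as bars and dotted lines at a 2-fold difference. Pgm1, Gys1, Gbe1, Ppp1r3c and Pygl lie beyond the 2-fold line in all 4 libraries, Gyg1 and Pygb lie between 0 and the lower line, and the Pygm bars are wide.

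The compound libraries gave the same count against the control. Among the 8 abundant genes 5 passed 2-fold upward with In-Cl (2.27% of abundant rows), 5 with DPN (1.82%) and 5 with E2 (1.88%). In all 4 hypoxic libraries at once, 5 of the 8 exceeded the control 2-fold or more, against 1.58% of abundant rows, with the same 3 genes in the count only through the hypoxic libraries. The control lay below all 4 hypoxic libraries for 6 of the 8, against 30.6% of abundant rows, and above all 4 for Gyg1 and Pygb, against 41.8%. The same 3 genes are among the 6, so this count too is a description and supports nothing. These 4 comparisons share the control library and are not independent. As that library is single, its own deviation and the effect of low oxygen cannot be told apart.

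How far the 4 hypoxic libraries spread differed between the genes. The range from the lowest to the highest hypoxic library was 0.041 (log2) for Gys1, 0.045 for Ppp1r3c, 0.063 for Pgm1, 0.092 for Gyg1 and 0.093 for Pygl. The median range over abundant rows was 0.209, and only 0.731% of abundant rows had a smaller range than Gys1. Gbe1 (0.259) and Pygb (0.252) were above that median, Ugp2 (0.15) below it. Rows with more reads have smaller ranges from counting alone, and the part of depth in this order was not tested. Pygm ranged over 1.44, on 7 to 22 reads.

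**Figure D3:**
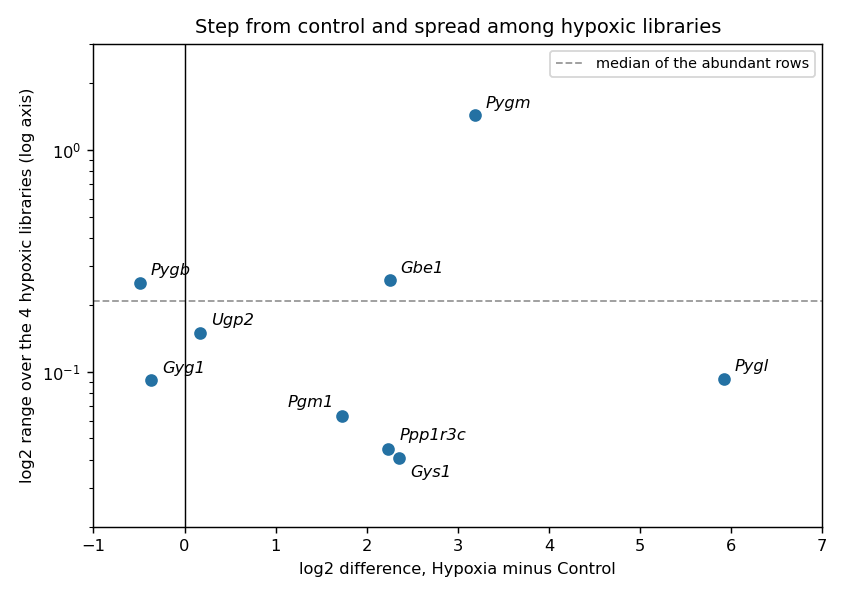
Log2 difference between hypoxia and control (horizontal axis) against the log2 range over the 4 hypoxic libraries (vertical log axis), with 1 point per gene and a dashed line at the median range of abundant rows, 0.209. Gys1, Ppp1r3c and Pgm1 combine a large step with a range of 0.063 or less, while Gbe1 and Pygb lie above the dashed line.

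In-Cl, DPN and E2 against hypoxia ask what each compound adds under low oxygen. Most of these genes stayed within counting error of the hypoxia library. Of the 8 abundant genes 0 differed by 2-fold in either direction with any compound, where 0.0597% of abundant rows did so for In-Cl, 0.119% for DPN and 0.0299% for E2. The medians were -0.01 with DPN, -0.036 with In-Cl and 0.036 with E2, beside 0, -0.014 and 0 over all abundant rows. Pygb was higher with every compound, which left it between hypoxia and the control, and Gbe1 was lower with In-Cl and DPN but not with E2. All 3 comparisons use the same hypoxia library.

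Pygb had 1097 reads in hypoxia and 1367 with In-Cl, a log2 difference of 0.25 (interval 0.14 to 0.37). With DPN it was 0.19 above hypoxia (0.07 to 0.31) and with E2 0.15 above (0.03 to 0.27). Each of these differences is under 1.2-fold. Gbe1 was below hypoxia by -0.15 with In-Cl (-0.26 to -0.04) and by -0.14 with DPN (-0.25 to -0.02). With E2 it was 0.11 above, where the interval from 0.00018 to 0.22 barely leaves out 0. Ugp2 was below hypoxia with E2 (-0.15, interval -0.30 to -0.0043) and, with an interval that includes 0, with In-Cl (-0.14, interval -0.28 to 0.0018). Pygl, Gys1, Ppp1r3c, Pgm1 and Gyg1 had intervals that include 0 with all compounds. For Gys1, the most deeply read of them, the intervals lay between -0.05 and 0.09, which covers counting error only and sets no limit on a compound's effect.

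With In-Cl, 1 of the 8 abundant genes had an interval above 0 and 1 below, where 25.4% of abundant rows lay above and 29.2% below. With DPN the counts were also 1 and 1, against 15.8% and 17.4%, and with E2 they were 2 and 1, against 18% and 17.9%. These shares are near the background, so the counts show nothing about the glycogen genes as a group. Pygm was 2.19-fold lower with E2 than in hypoxia on 7 reads against 18, and its interval (-2.78 to 0.05) includes 0.

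**Figure D4:**
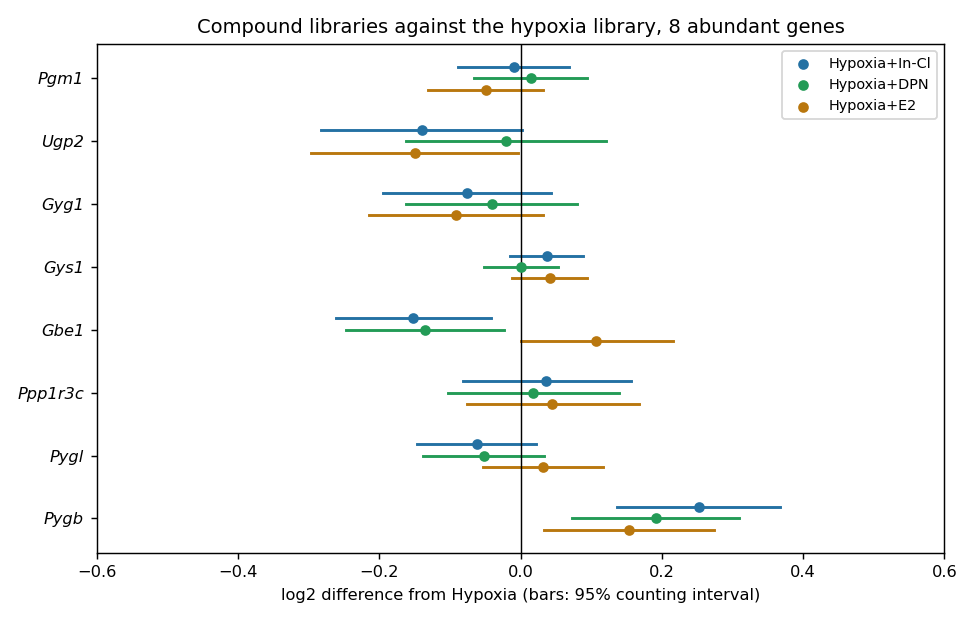
Log2 difference of the In-Cl, DPN and E2 libraries from the hypoxia library (horizontal axis) for the 8 abundant genes, with 95% counting intervals as bars. The Pygb points all lie right of 0, at 0.15 to 0.25, Gbe1 lies left of 0 with In-Cl and DPN, and most other bars cross 0.

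In-Cl and DPN were given at the same dose, so they can be set against each other. None of the 9 genes differed between them beyond counting error, and 0 of the 8 abundant genes had an interval above 0 (20.5% of abundant rows) or below 0 (24.6%). At 2-fold the count was also 0, against 0.149% of abundant rows. The difference, In-Cl minus DPN, was 0.06 for Pygb (interval -0.05 to 0.17), -0.02 for Gbe1 (-0.13 to 0.10) and -0.12 for Ugp2 (-0.26 to 0.02). It was -0.01 for Pygl (-0.10 to 0.08) and 0.04 for Gys1 (-0.02 to 0.09). These bounds do not show that the compounds act alike. E2 was given at 10 nM rather than 0.1 µM, so its values stand beside the others without a comparison.

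The wider glycogen pathway was read from a list of 48 further genes, of which 45 were found, 44 were detected and 29 were abundant. In hypoxia against control 0 of these 29 were at least 2-fold higher and 0 at least 2-fold lower, and their median was -0.11, beside -0.045 over all abundant rows. By interval 9 lay above 0 and 15 below, where 28.7% and 39% of abundant rows did. Without the abundance filter, 4 of the 44 detected genes passed 2-fold upward and 0 downward, against 8.85% and 3.25% of all detected rows. The upward share is near the background, so this count shows nothing about the list as a group. Of these 4, 2 had an interval that leaves out 0. Ppp1r3b, another subunit that holds the phosphatase on glycogen, was read 32 times in the control, 79 in hypoxia, 74 with DPN, 89 with In-Cl and 55 with E2 (hypoxia minus control 1.57, interval 0.98 to 2.23). Prkab2, a glycogen-binding beta subunit of AMP-activated kinase, had 100, 221, 251, 309 and 293 reads in the same order (1.42, interval 1.08 to 1.78). Both were above the control in all hypoxic libraries, as were 30.6% of abundant rows, and neither gene is among the abundant rows. The other 2, G6pc (1.32) and Prkag3 (1.58), had at most 11 reads in these 2 libraries and intervals that include 0.

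By role, the alpha-glucosidases were split, with the lysosomal enzyme Gaa, which degrades glycogen there, at -0.14 (interval -0.23 to -0.06) and Ganc at 0.31. Phosphorylase kinase, which activates phosphorylase, had Phkg2 lowest at -0.32 (-0.48 to -0.17) and Phkg1 highest at 0.89 on 11 reads against 7, with an interval that includes 0. Of its 8 genes, calmodulins included, 1 had an interval above 0 and 3 below, beside 28.7% and 39% of abundant rows. Of the 7 detected targeting and catalytic subunits of protein phosphatase 1, Ppp1r3b was the highest, and Ppp1r3a, lowest at -0.85, rested on 1 read in the control and 0 in hypoxia. The kinases that restrain the synthase parted, Gsk3b at 0.35 (0.19 to 0.51) and Gsk3a at -0.15 (-0.23 to -0.06).

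The remaining phosphoglucomutases were lower or level where Pgm1 was higher. Pgm3, which acts on N-acetylglucosamine phosphate, was at -0.61 (interval -0.78 to -0.45) and Pgm5, a relative found at muscle adhesion sites, at -0.60 (-0.74 to -0.45). Pgm2 was at -0.38 and Pgm2l1 at 0.10, with an interval that includes 0. Slc37a4, which carries glucose 6-phosphate into the endoplasmic reticulum, was at 0.86 (0.66 to 1.05), while the phosphatase G6pc3 was at -0.25. In the group of genes that use UDP-sugars or bring galactose in, Galk1, galactokinase, was highest at 0.88 (0.80 to 0.97) and B4galt1, a galactosyltransferase, lowest at -0.58 (-0.76 to -0.41). AMP-activated kinase subunits ran from Prkaa2 at -0.68 (-1.02 to -0.35) to Prkag3. For Prkaa2 the compound libraries did not share this fall. Its log2 value was 7.56 in the control, 6.88 in hypoxia, 7.53 with DPN, 7.73 with In-Cl and 7.66 with E2. The laforin and malin genes Epm2a (-0.35) and Nhlrc1 (0.57), which control glycogen quality, had 16 to 28 reads and intervals that include 0.

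**Figure D5:**
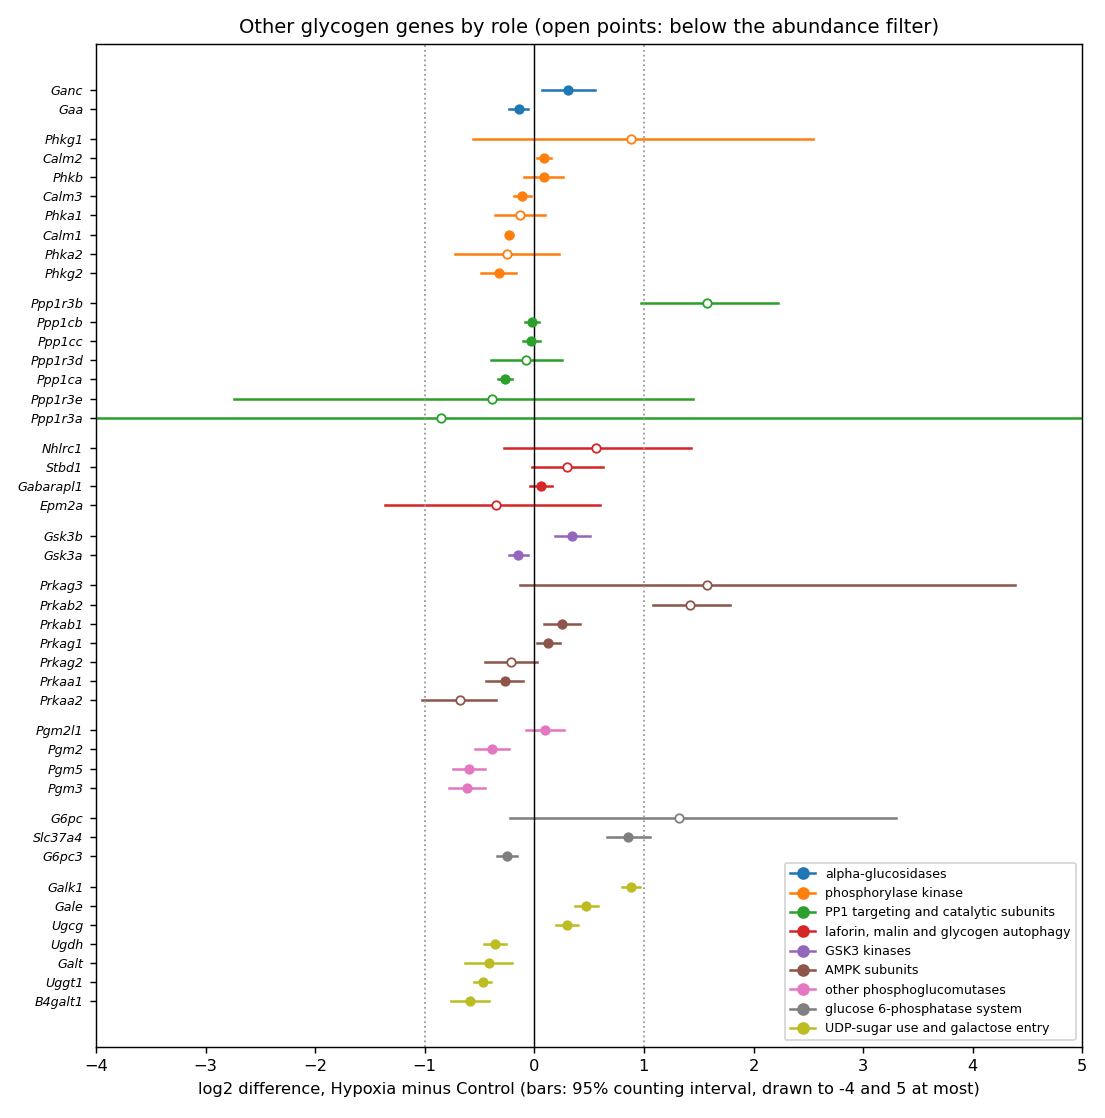
Log2 difference, hypoxia minus control (horizontal axis), of the 44 detected genes of the wider list grouped by role, with 95% counting intervals as bars and open points for genes below the abundance filter. Filled points all lie between the dotted 2-fold lines, and Ppp1r3b and Prkab2 lie beyond the upper one with intervals that leave out 0.

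Which other genes followed the same course was read from the 4 differences from the control, 1 for each hypoxic library, as the Euclidean distance between genes over 6549 named abundant rows. The 4 differences share the control library, so a small distance mostly says that 2 genes made a step of the same size. Nearest to Pygl were the adenylate kinase Ak4 at a distance of 1.08, the prolyl hydroxylase Egln3 at 1.64 and the lactate exporter Slc16a3 at 1.94, where the median gene was at 11.9. Nearest to Gys1 were Eif4e3 and Zfp395 (both 0.09) and Rab26 (0.19). Ppp1r3c was closest to Stc1 (0.12), the secreted hormone stanniocalcin, then to the pyruvate kinase gene Pkm (0.16) and Rab26 (0.17).

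Gbe1 had Pkm (0.21), the triose phosphate isomerase Tpi1 (0.26) and Stc1 (0.27) nearest to it. For Pgm1 they were Slc35e1 (0.15), the mitophagy receptor Bnip3l (0.16) and the ion channel Hcn2 (0.19). For the genes that did not reach 2-fold the nearest were Max, Dpf2 and Myg1 for Ugp2 (0.03 to 0.04), Utp3, Hars and Ik for Gyg1 (0.04 to 0.05), and Ncdn, Rbm6 and Hip1 for Pygb (0.07 to 0.09). For Pygm they were Prr15, P4ha2 and Pgk1 (1.01 to 1.18), with its profile resting on 1 control read.

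Neighbouring genes were read only where they were abundant, and rarer genes in between were passed over. The nearest abundant protein-coding gene on each side of the 9 genes, in the order of the RefSeq table, gave 18 neighbours with differences between hypoxia and control from -0.31 (Mdh1, beside Ugp2) to 0.36 (Rasgrp2, beside Pygm), and 0 of them reached 2-fold. Beside Pygl, Sav1 was at 0.28 and Tmx1 at -0.02, and beside Gys1, Ruvbl2 was at 0.10 and Ftl1 at -0.16.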

How the data were processed

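Total RNA of rat vascular smooth muscle cells was isolated using Trizol, and a strand-preserving SMARTer kit was used for the libraries, per the labels' protocols. TopHat, edgeR and build rn6 are named in the submitters' processing notes; for versions, counting program, annotation and strand setting the entry is "not given in the sources used here". Log2 values of 17048 rows, 1 table per library, were deposited by the authors. From the values, they are log2 of a linear value plus 1. A linear value worth 1 read was taken as the median of the first step above 0 (0.848 in the control to 1.10 with E2), and 87.6% of control values up to 2.5 reads, 99.2% of E2 values and 100% in the other 3 libraries lay within 0.2 read of a whole number. Reads are approximate, so no count model was fitted. Intervals were computed with SciPy 1.17.1 in Python 3.11.15. Their code was run on simulated independent counts, which meet the assumptions of the interval and so cannot show how well it suits these data. The 9 genes and the wider list were chosen with earlier results of these data known, and 1 gene of that list is not reported here. Named were the 9 genes, wider-list genes past 2-fold or at either end of their role, and for each of the 9 the 3 nearest profiles. Alternatives were median centring, quantile normalization, another pseudocount (10), raising values under 3 reads, summing rows, 1.5-fold and no filter. All samples and columns were used.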

Additional observations from a re-analysis of the deposited data

How the results depend on the processing

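The counts and medians of the glycogen genes kept their size under nearly all alternatives run. Of the values for gene counts and medians, 102 of 107 stayed within 1.5 times (counts) or within the typical counting interval (medians). Of the values of single genes, 266 of 272 stayed within their own interval. These totals include values that could not move. Each glycogen gene has 1 row, so summing rows changed nothing for them. Raising values under 3 reads left the abundant glycogen genes unchanged, and a 1.5-fold threshold cannot move a median. Sign changes occurred only at values close to 0: the median with DPN against hypoxia went from -0.01 to 0.001 without the abundance filter, Gys1 with DPN against hypoxia from 0.001 to -0.009 under median centring, and Pygl with In-Cl against DPN from -0.01 to 0.0039 under quantile normalization. Without the abundance filter the median of the glycogen genes in hypoxia against control was 2.24 instead of 1.98, since Pygm enters, and with E2 against hypoxia 1 gene, Pygm, was past 2-fold instead of 0. In the wider list the count higher in hypoxia was 4 without the filter and 2 at 1.5-fold, and the count lower was 2 at 1.5-fold, each instead of 0. The cause is the construction of these settings, which add genes or lower the threshold. Another hypoxic library in place of hypoxia gave Ugp2 0.03 (In-Cl) or 0.02 (E2) instead of 0.17, and Pygb -0.24 (In-Cl), -0.30 (DPN) or -0.33 (E2) instead of -0.49. Depth limits Pygm most. No paired analysis was possible because each condition has 1 library and the labels carry no replicate numbers.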

Other observations

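Some regulators of glycogen metabolism in the wider list stood above the hypoxia library with In-Cl, and fewer of them with DPN or E2. These genes were singled out after their values were seen. With In-Cl, Gsk3b, a kinase that restrains glycogen synthase, was at 0.44 against hypoxia (counting interval 0.29 to 0.58), on 962 reads against 679. Prkaa1, a catalytic subunit of AMP-activated kinase, was at 0.42 (0.26 to 0.60) and its relative Prkaa2 at 0.85 (0.52 to 1.20). Prkaa1 was also above hypoxia with DPN (0.205, interval 0.028 to 0.384) and with E2 (0.194, interval 0.016 to 0.375). For Prkaa1 and Prkaa2 the hypoxia library was the lowest, with hypoxia minus control at -0.269 and -0.675. The part of a low hypoxia library in these differences was not tested. The phosphorylase kinase subunits Phka1 (0.32), Phka2 (0.51) and Phkb (0.30) had intervals above 0 with In-Cl. With DPN these were at 0.03, 0.16 and -0.02, and with E2 at -0.24, 0.19 and 0.01, all with intervals that include 0. Gsk3b was at 0.05 with DPN (-0.11 to 0.20) and at 0.25 with E2 (0.10 to 0.40).

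In the DPN library Prkaa2 was also above hypoxia (0.65, interval 0.30 to 1.005), and with E2 it was at 0.78 (0.44 to 1.14). Epm2a, which encodes the glycogen phosphatase laforin, had 16 reads in hypoxia, 37 with DPN, 40 with In-Cl and 31 with E2, against 25 in the control. On the other side, Galk1 was at -0.39 with In-Cl (-0.47 to -0.31) and Slc37a4 at -0.36 (-0.55 to -0.18). Of the 29 abundant genes of the list, 7 had an interval above 0 and 9 below with In-Cl, beside 25.4% and 29.2% of all abundant rows, so the list as a whole was near the background. Against DPN at the same dose, In-Cl was higher for Gsk3b (0.39, interval 0.25 to 0.53).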
